A study of Homo sapiens with 36 samples.

Results

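Complement is a set of plasma and cell-surface proteins that mark cells and microbes for removal. The proteases C1r and C1s, bound to C1q, start the classical pathway, and MASP-1 has a like role in the lectin pathway. Both pathways lead to cleavage of C3, the central component, and factor B (CFB) carries the amplifying alternative pathway. C1 inhibitor, encoded by SERPING1, blocks the starting proteases. On the cell's own surface CD55 breaks up the C3-cleaving enzymes, CD46 helps to inactivate C3b, and CD59 blocks the final membrane pore. Fibroblasts and epithelial cells make several of these proteins themselves, although the liver supplies most of the plasma pool.

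The genes described are 9 of the 19125 gene symbols on the primary chromosomes, chosen by symbol: the proteases C1R, C1S and MASP1, the components C3 and CFB, the soluble inhibitor SERPING1 and the surface regulators CD46, CD55 and CD59. These genes were chosen with earlier results of these data known. Counts and medians of members set beside all genes therefore describe the list and are not an independent test. For each symbol the transcript with the highest mean count over all 36 libraries stood for the gene, so mean count is the measured value that chose the row. The libraries came from 2 human cell models. The MCF10A-ER-Src cells are breast epithelial and carry a Src kinase that 4-hydroxytamoxifen switches on. It was sampled after 1 µM tamoxifen for 1, 4 or 24 h, after ethanol for the same times, and at 0 h. The BJ skin fibroblast lines are labelled EH, EL and ELR, names that the labels do not spell out; as background, such series carry telomerase, then SV40 early region, then oncogenic HRAS. Each line is 1 derivative, and no label says that replicates were separate cultures, so p-values may measure technical spread. RNA was sequenced, and ribosome footprints were taken after 100 µg/ml cycloheximide for 90 s, which holds ribosomes where they are, or 2 µg/ml harringtonine for 5 min, which holds them at start codons. The ER-Src set had 7 RNA, 10 cycloheximide and 4 harringtonine libraries. Each BJ line had 1 RNA library and 2 of each footprint kind. Uninduced ER-Src footprints are 4 libraries, the 0 h replicate 1 and 3 ethanol replicate 2 libraries, so vehicle and replicate number cannot be told apart in that group. The uninduced RNA group also had 4 libraries, and each tamoxifen time had 2 cycloheximide libraries and 1 RNA library. Between BJ cycloheximide replicates chi-square per gene was 1.09 to 1.17, where counting error alone gives about 1. The p-values of the BJ lines thus rest on little spread beyond counting error. Between ER-Src tamoxifen replicates it was 3.83 to 5.27.

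Total counts ran from 1177909 to 2606112 in the BJ cycloheximide libraries, from 1334764 to 3627719 in the ER-Src ones, from 2070803 to 3008642 in RNA and from 129172 to 374305 under harringtonine. Of 12 fibroblast markers, all 12 had counts in BJ footprints. In ER-Src footprints 9 had counts and 4 reached 10 CPM (normalised read counts, scaled by TMM to each library's size). COL1A2, COL3A1 and THY1 were at 0 there. All 12 epithelial markers reached 10 CPM in ER-Src footprints. In BJ footprints 10 of them had counts and 6 reached 10 CPM, with CDH1 and KRT5 at 0. Hepatocyte markers, a check because liver is the main source of complement, summed to at most 3.61 CPM in any cycloheximide library, with albumin (ALB) at 0. Fibroblast markers summed to between 43420 and 44450 CPM in EH, 15400 and 15450 in EL and 11590 and 11850 in ELR, so they moved with the genes below, and their part in those results was not tested.

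The members lie at separate places except for 2 pairs. Accessions name the counted rows, while spans and coding lengths are of a GENCODE transcript of the gene, which may differ from that row. C1S (NM_001734) spans GRCh37 chromosome 12, 7168022 to 7178336, on the plus strand, and C1R (NM_001733) lies beside it on the minus strand (7187836 to 7245131, from an older annotation carried over). CD55 (NM_001114752; chromosome 1, 207495023 to 207534311) and CD46 (NM_172359; 207925399 to 207968849) lie near each other on the plus strand. C3 (NM_000064) is on chromosome 19 (6677715 to 6720661), MASP1 (NM_139125) on chromosome 3 (186951870 to 187009525) and CFB (NM_001710) on chromosome 6 (31913872 to 31919861). SERPING1 (NM_000062; 57365158 to 57382321) and CD59 (NM_000611; 33724556 to 33757969) are both on chromosome 11. The rows of CD59 (8), C1S (2) and SERPING1 (2) had the same counts in every library. The 3 rows of MASP1, 8 rows of CD46 and 2 rows of CD55 differed.

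The promoters of 3 members whose footprints were higher after 24 h of tamoxifen, described below, are shown. Of the 3, C1R alone was also called at 4 h, a call that was not stable, and a difference in timing was not tested. CD46, likewise called higher at 24 h, is not printed. RefSeq's promoter table (GRCh38.p14) held 11 start sites for 6 members, namely C1R, CFB, MASP1, CD46, CD55 and CD59. The 250 bases upstream of each were searched on both strands for an interferon-response core (GAAA and GAAA with NN between), a STAT element (TTCNNNGAA, the GAS motif), a kappaB motif (GGGA and TTCC with NN between) and an AP-1 motif (TGANTCA). Among all 35116 promoters of that length, 3.02%, 6.57%, 1.4% and 6.57% held a match. Each is printed 5′ to 3′ on the gene's strand, ending just before the start site, with matches in capitals; for C1R and CD59, which have several start sites, a window with a match is shown.
C1R, chr12:7091894-7092143, minus strand: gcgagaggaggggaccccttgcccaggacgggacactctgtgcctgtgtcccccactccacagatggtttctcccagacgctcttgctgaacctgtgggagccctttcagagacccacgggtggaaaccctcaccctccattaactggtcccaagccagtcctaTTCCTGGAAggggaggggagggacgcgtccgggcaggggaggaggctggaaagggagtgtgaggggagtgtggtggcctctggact
CD55, chr1:207321428-207321677, plus strand: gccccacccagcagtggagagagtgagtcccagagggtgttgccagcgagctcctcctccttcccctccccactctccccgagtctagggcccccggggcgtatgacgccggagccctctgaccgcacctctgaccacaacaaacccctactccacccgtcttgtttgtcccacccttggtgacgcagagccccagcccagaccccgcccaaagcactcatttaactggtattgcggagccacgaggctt
CD59, chr11:33736480-33736729, minus strand: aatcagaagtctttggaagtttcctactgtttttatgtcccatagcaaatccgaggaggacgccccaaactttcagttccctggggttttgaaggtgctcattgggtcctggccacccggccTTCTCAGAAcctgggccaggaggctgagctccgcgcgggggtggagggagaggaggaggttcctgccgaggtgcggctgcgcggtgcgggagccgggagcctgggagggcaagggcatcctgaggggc
The C1R window held 1 GAS match, TTCCTGGAA, 86 bases before the start. The CD59 window held 1 GAS match, TTCTCAGAA, 128 bases before the start, which an overlapping CD59 window also holds 184 bases before its own start, and another CD59 start site had 2 AP-1 matches. The other C1R window, the remaining CD59 window, the CD55 window, both CD46 windows and the MASP1 window held none of the 4 motifs. The CFB window held the interferon-response core as TTTCTGTTTC and a GAS match as TTCCGGGAA. A match describes letters and not binding.

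The comparison of the BJ lines asks how the messages being translated differ between successive fibroblast derivatives. Footprints of the complement proteases and of the C1 inhibitor were high in EH, lower in EL and lowest in ELR. C3 was lower in EL than in either other line, CD59 fell in steps, and CD46 and CD55 changed least. Of 8 members tested in EL against EH, 0 were higher and 7 lower (edgeR quasi-likelihood, adjusted p under 0.05), where 41.5% of all tested genes were called. The median log2 change of the members was −2.10, against −0.01 over all tested genes. In ELR against EL, 1 was higher and 5 were lower of 8, where 36.1% of genes were called (medians −1.77 and −0.01). In ELR against EH, 0 were higher and 7 lower of 8, where 53.4% were called (medians −3.52 and −0.01). The 3 comparisons share libraries and are not independent. C1S, C3, MASP1 and SERPING1 passed the low-count filter mainly through the lines where they were high. In bulk samples, fewer cells expressing a gene and less RNA per cell cannot be told apart.

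**Figure D1:**
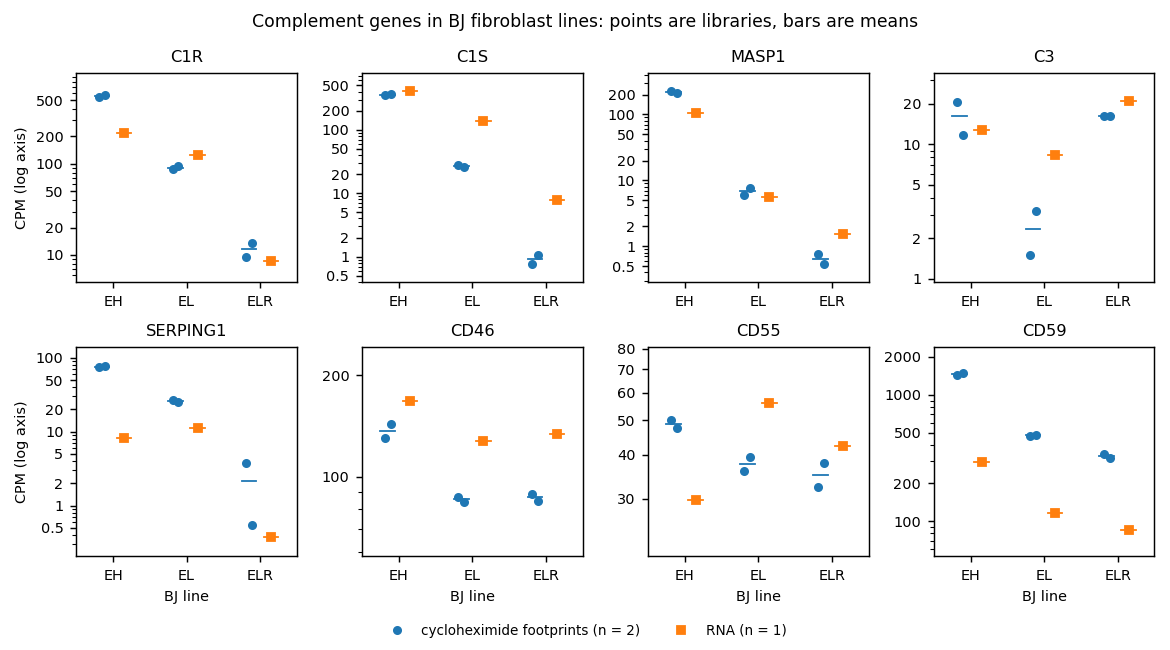
Normalised counts (CPM, log axis) of 8 complement genes in the BJ lines EH, EL and ELR. Blue points are cycloheximide footprint libraries (n = 2 per line) with their mean as a bar, and orange squares are the single RNA libraries. C1R, C1S, MASP1 and SERPING1 descend to ELR while C3 dips in EL alone.

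C1R, the protease that activates C1s, had 536 and 573 CPM in the EH cycloheximide libraries, 87.0 and 94.7 in EL and 9.53 and 13.5 in ELR. The 3 lines were apart, EH highest. The log2 change was −2.61 ± 0.08 (SE; adjusted p = 2.96e-42, edgeR) in EL against EH and −3.01 ± 0.17 (adjusted p = 1.7e-25) in ELR against EL. C1S, which cleaves C4 and C2, had 350.2 and 369 CPM in EH, 28.4 and 25.8 in EL, and 0.762 and 1.08 in ELR, the last from 2 counts in each library. The change was −3.72 ± 0.11 (adjusted p = 1.15e-42) in EL against EH and −4.83 ± 0.40 (adjusted p = 3.46e-17) in ELR against EL. Both proteases thus fell at both steps.

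MASP1 had 223 and 210.4 CPM in EH and 6.05 and 7.70 in EL, a log2 change of −4.98 ± 0.17 (adjusted p = 6.08e-39). That fall was known when the genes were chosen and is given as a description. ELR had 3 counts over both libraries, so EL was 10.2-fold higher than ELR with an exact 95% counting interval of 3.18 to 51.7, and EH was 324-fold higher (110.4 to 1578). The other MASP1 transcripts were also highest in EH: the NM_001879 row had 210 and 145 counts in EH, 15 and 12 in EL and 1 and 1 in ELR, and the NM_001031849 row 189 and 127, 9 and 11, and 1 and 1. The kept row stands for the MASP1 gene, and which protein form of the gene was translated was not tested. SERPING1 had 74.6 and 76.4 CPM in the EH libraries, 27.2 and 24.9 in EL, and 3.81 and 0.540 in ELR. Its ELR libraries differed (10 counts and 1 count), yet both lay under every EL library. Its change was −1.53 ± 0.18 (adjusted p = 1.84e-11) and then −3.38 ± 0.34 (adjusted p = 1.64e-13). The size of the latter rests on which ELR library is used: it was −5.43 without ELR replicate 1 and −2.76 without ELR replicate 2, and in ELR against EH the change of −4.91 was −6.95 and −4.28 likewise.

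C3 had 20.7 and 11.7 CPM in the EH libraries, 1.51 and 3.17 in EL, and 16.4 and 16.2 in ELR. EL lay below both other lines, and EH and ELR overlapped. The change was −2.84 ± 0.45 (adjusted p = 1.75e-07) in EL against EH and 2.81 ± 0.40 (adjusted p = 1.38e-08) in ELR against EL, and ELR and EH differed by −0.02 ± 0.30 (adjusted p = 0.953). These rest on few counts, 11 over the EL libraries.

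Among the surface regulators, CD59 fell from 1431 and 1473 CPM in EH to 476 and 484 in EL and 340.4 and 317 in ELR. The changes were −1.60 ± 0.04 (adjusted p = 8.45e-45) and −0.54 ± 0.05 (adjusted p = 1.86e-14). CD46 had 137 ± 9.78 CPM in EH (SD, n = 2), 87.0 and 84.3 in EL, and 89.2 and 84.8 in ELR, so EH lay above both and EL and ELR overlapped. It was lower in EL than in EH by −0.67 ± 0.11 (adjusted p = 4.56e-07) and differed by 0.03 ± 0.10 between ELR and EL (adjusted p = 0.872). CD55 had 50.2 and 47.7 CPM in EH, 35.9 and 39.4 in EL and 32.4 and 37.8 in ELR. The EL and ELR libraries overlapped and lay below those of EH. Its change of −0.39 ± 0.18 in EL did not pass (adjusted p = 0.0695), and −0.50 ± 0.18 in ELR against EH passed (adjusted p = 0.0156) but not under DESeq2 (adjusted p = 0.154). Without EH replicate 1 or ELR replicate 1 the adjusted p was 0.12 and 0.164.

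**Figure D2:**
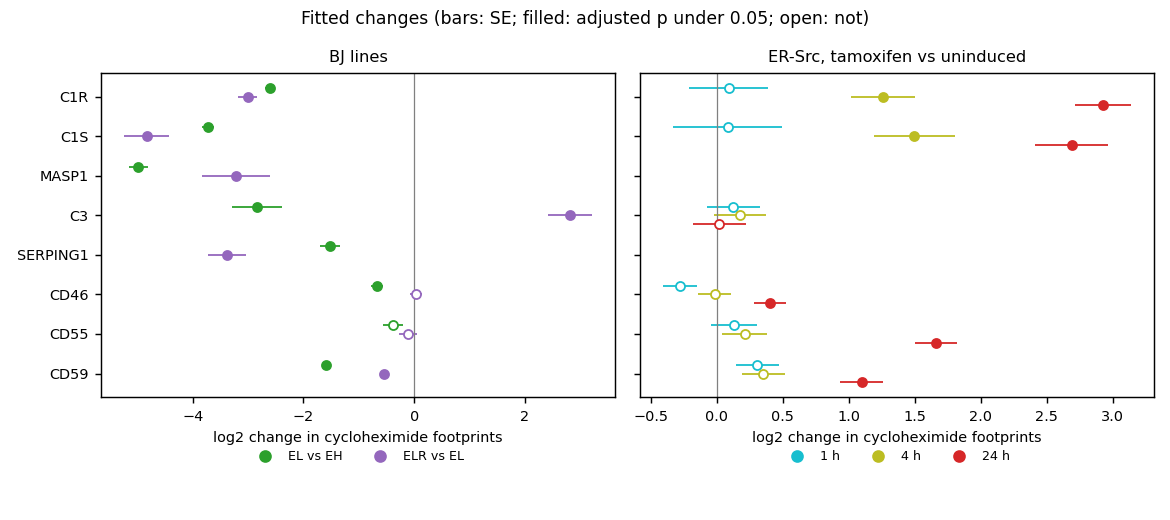
Log2 changes in cycloheximide footprints with SE bars for EL against EH and ELR against EL (left) and for tamoxifen against uninduced ER-Src cells (right). Filled points passed an adjusted p of 0.05, open points did not, and a gene without a point was not tested. C1R and C1S lie far left in BJ and far right after 24 h of tamoxifen.

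RNA gave the same order for the proteases, in 1 library per line and so without a test. From EH to EL to ELR, C1R RNA was at 218, 126 and 8.70 CPM, C1S 406, 139 and 7.94, and MASP1 104, 5.54 and 1.51. EH was 1.73-fold above EL for C1R (exact 95% counting interval 1.49 to 2.02) and 2.93-fold for C1S (2.57 to 3.35), where their footprints had 6.10-fold (5.48 to 6.81) and 13.2-fold (10.96 to 15.9). CD59 RNA fell from 293 to 116 and 85.5 CPM. CD55 RNA went the other way from its footprints, at 29.8, 55.9 and 42.4 CPM, with EL 1.88-fold above EH (1.38 to 2.58). SERPING1 RNA, 8.24, 11.1 and 0.378 CPM, rested on 18, 24 and 1 counts, and C3 RNA was 12.8, 8.32 and 21.2 CPM.

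Ribosome loading, the change in footprints beyond that in RNA, was tested as an interaction term. In EL against EH it was lower for 5 of 8 members and higher for 0, where 6.73% of genes were called. The 5 were C1R (−1.80 ± 0.15, adjusted p = 5.33e-17), C1S (−2.15 ± 0.17, adjusted p = 1.87e-18), C3 (−2.21 ± 0.67, adjusted p = 0.0274), SERPING1 (−1.94 ± 0.50, adjusted p = 0.0063) and CD55 (−1.28 ± 0.28, adjusted p = 0.00093). The ratio of footprint to RNA CPM went from 2.54 to 0.723 for C1R, 0.885 to 0.196 for C1S and 9.17 to 2.35 for SERPING1, and from 4.95 to 4.12 for CD59 (adjusted p = 0.234). MASP1, the member whose footprints fell most, had a loading change of −0.76 ± 0.52 (adjusted p = 0.465). DESeq2 called C1R and C1S, and gave no adjusted p for the other 3. C3 lost its call without EH replicate 1 (adjusted p = 0.218) or EL replicate 1 (0.153), and its change was −2.80 without EL replicate 2. The scaling moved the split over all genes: 34.44% of the calls in ELR against EL were higher with TMM and 60.62% with relative log expression scaling. In ELR against EL, 0 of 8 members were called, where 2.99% of genes were; 2 members had an unadjusted p under 0.05, and DESeq2 called 0, with an adjusted p for CD59 alone. In ELR against EH, C1S (−2.93 ± 0.64, adjusted p = 0.000656), CD55 (−1.04 ± 0.29, adjusted p = 0.012) and CD59 (−0.39 ± 0.13, adjusted p = 0.0418) were lower, 3 of 8 where 7.52% of genes were called. DESeq2 called C1S of these (CD55 adjusted p = 0.326, CD59 0.273). Leaving out cycloheximide EH or ELR replicate 1 ended the CD55 call (0.0595 and 0.0842), and EH or ELR replicate 2 the CD59 call (0.0707 and 0.124), which also failed under relative log expression scaling (0.0795). The single RNA library of each line was assumed to vary like the replicated footprints.

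**Figure D3:**
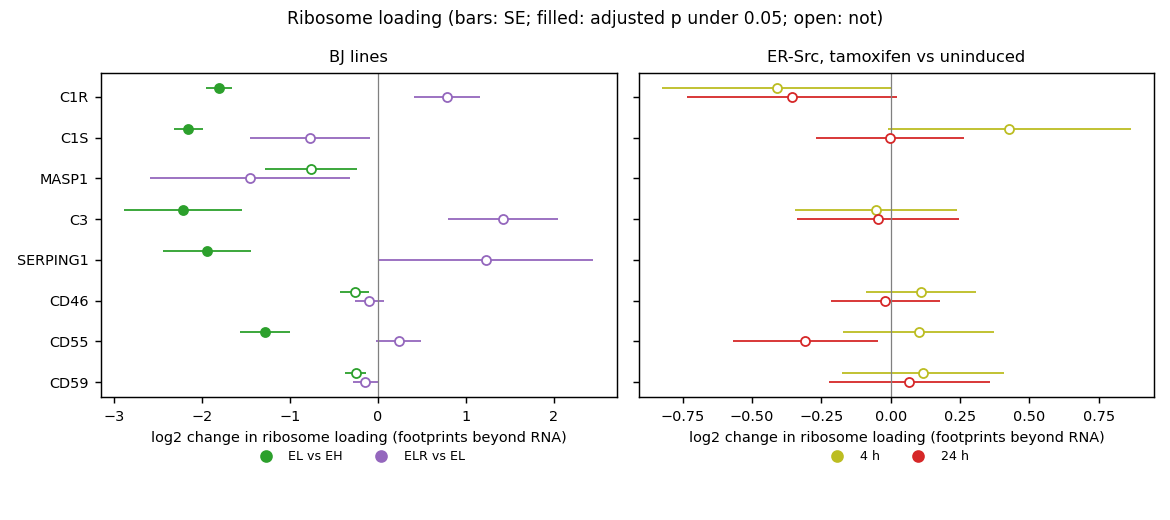
Log2 changes in ribosome loading, footprints beyond RNA, with SE bars, in EL against EH and ELR against EL (left) and after 4 and 24 h of tamoxifen in ER-Src cells (right). Filled points passed an adjusted p of 0.05: 5 members in EL against EH and none in the other 3 comparisons drawn.

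Harringtonine footprints were shallow, and 4 members passed the filter (C1R, C1S, C3 and CD59). All 4 were lower in EL than in EH, where 18.5% of genes were called. In ELR against EL, 1 was higher and 2 lower (16.3% called), and in ELR against EH 0 were higher and 3 lower (30.8% called). C1S passed the filter through EH, and C3 mainly through EH and ELR, the lines where each was high. The C1S calls against EH therefore carry no weight, and the C3 calls little. C1R had 689 and 638 CPM in EH, 88.0 and 69.8 in EL, and 10.6 and 9.65 in ELR. C1S had 46 counts over the EH libraries and 0 over the ELR ones, so it was at least 28.7-fold lower in ELR against a floor of 3 counts. C3 had 7 and 13 counts in EH, 0 and 9 in EL, and 15 and 19 in ELR. Its call in EL against EH (adjusted p = 0.0203) was lost without EL replicate 1 (adjusted p = 0.527) or EH replicate 2 (0.429), and that in ELR against EL (0.0194) without EL replicate 1 (0.616) or either ELR library (0.0618 and 0.169). Without EL replicate 2 the remaining EL library has 0 counts of C3, so no size is given. The C1S call in ELR against EL (adjusted p = 0.0219) was lost without those same 3 libraries (0.202, 0.122 and 0.143).

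The tamoxifen series asks what follows when Src is switched on in epithelial cells. After 24 h, footprints of C1R and C1S were several-fold higher, those of CD55 and CD59 rose by less, CD46 rose slightly, and C3 did not pass. Of 6 members tested, 5 were higher and 0 lower, where 14.6% of genes were called (median 1.38, against −0.01 over all tested genes). At 4 h 2 were higher, C1R and C1S, where 0.854% were called, and at 1 h 0 of 6, where 0.0196% were called. At 1 h 1 member had an unadjusted p under 0.05. DESeq2 called 0 at 1 h, and gave no adjusted p for C1R and C1S there. The 24 h libraries also differed directly from the 1 h ones for 5 of 6 members, all higher, where 13.6% of genes were called. The 1, 4 and 24 h comparisons share the uninduced libraries. Macrophage and leukocyte markers, whose cells also make complement, summed to between 53.9 and 74.6 CPM uninduced and 123 and 151 at 24 h. Of those 13 markers 7 were at 0 in the ER-Src cycloheximide libraries (AIF1, CD163, CD3E, LYZ, MS4A1, PTPRC and TYROBP). The other 6 had counts (CD14, CSF1R, CD68, ITGAM, FCER1G and CD79A), and 2 of the markers reached 10 CPM. Fibroblast markers summed to between 1409 and 1656 CPM uninduced and 969.1 and 1014 at 24 h. The part of either list in the result was not tested.

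**Figure D4:**
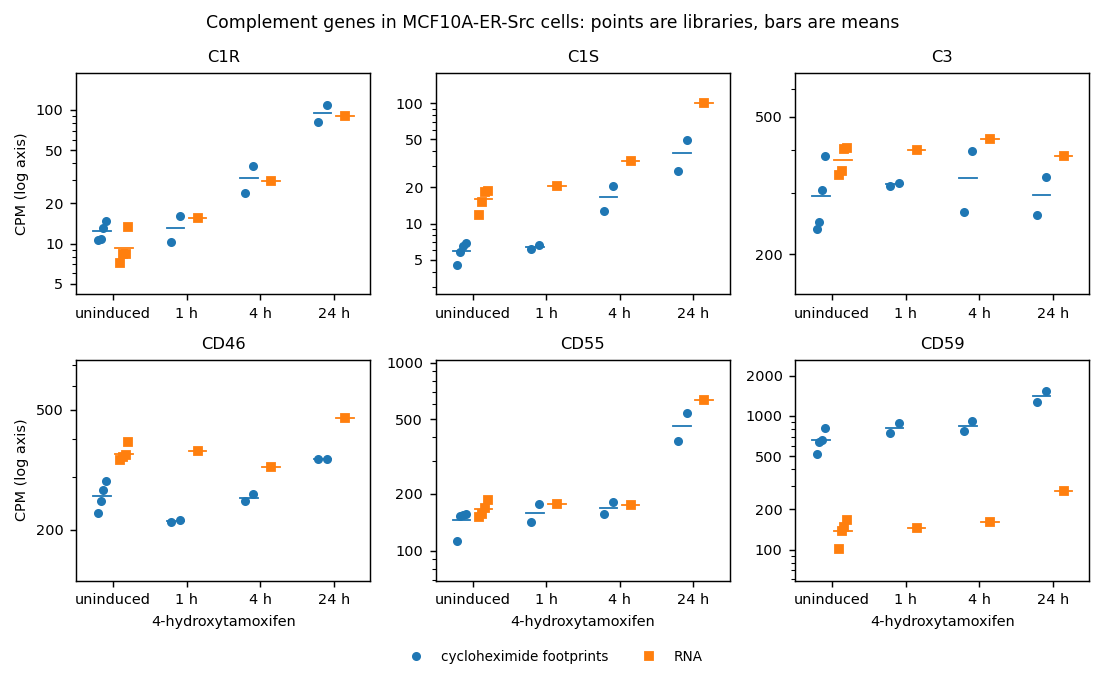
Normalised counts (CPM, log axis) of 6 complement genes in uninduced MCF10A-ER-Src cells and after 1, 4 and 24 h of 4-hydroxytamoxifen. Blue points are cycloheximide libraries (4 uninduced, 2 per time), orange squares RNA libraries (4 uninduced, 1 per time), and bars are means. C1R and C1S lie above the uninduced footprint libraries from 4 h and CD55 and CD59 at 24 h, while C3 overlaps them throughout.

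C1R footprints in the 4 uninduced libraries were 10.5, 10.9, 13.2 and 14.8 CPM (mean 12.4 ± 2.01, SD, n = 4). They were 10.3 and 15.97 at 1 h, 37.9 and 24.1 at 4 h, and 80.6 and 109 at 24 h. Both later times lay above every uninduced library. The change was 1.26 ± 0.24 at 4 h (adjusted p = 0.0208) and 2.93 ± 0.21 at 24 h (adjusted p = 1.66e-07). C1S ran from 4.52 to 6.87 CPM in the uninduced libraries (median 6.13), with 6.21 and 6.61 at 1 h, 12.6 and 20.7 at 4 h, and 27.1 and 49.4 at 24 h. Its change was 1.497 ± 0.31 at 4 h (adjusted p = 0.0307) and 2.69 ± 0.28 at 24 h (adjusted p = 6.31e-06). The 4 h calls were not stable: with ethanol libraries alone as controls, which leaves out the 0 h library, neither passed (adjusted p = 0.0531 and 0.0785), and C1R also lost its call without tamoxifen 4 h replicate 1 (0.586) or ethanol 1 h (0.0606), and C1S without any of the other 5 libraries (0.0538 to 0.551).

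CD55 had 113, 153, 155.5 and 157 CPM uninduced, 141 and 177 at 1 h, 181 and 157 at 4 h, and 383 and 537 at 24 h. The 24 h change was 1.66 ± 0.16 (adjusted p = 2.85e-06), and both libraries lay above all the others. CD59 ran from 520.1 to 818 CPM uninduced (median 649), reached 887 and 742 at 1 h and 913 and 766 at 4 h, and had 1536 and 1279 at 24 h, a change of 1.10 ± 0.16 (adjusted p = 0.000189). CD46 had 227 to 289 CPM uninduced (median 259) and 342 and 344 at 24 h. Its change of 0.40 ± 0.12 (adjusted p = 0.0363) lost its call without the 0 h library (adjusted p = 0.0735), the ethanol 1 h (0.0898) or 4 h library (0.0564), or either tamoxifen library (0.171 and 0.172). C3 had 237 to 385 CPM uninduced (median 277) and 335 and 259 at 24 h, a change of 0.02 ± 0.20 (adjusted p = 0.968).

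RNA of the same genes was also tested. Each tamoxifen time has 1 RNA library, so the spread comes from the 4 uninduced libraries and the lone library is assumed to vary like them. At 24 h 4 of 6 members were higher and 0 lower, where 6.46% of genes were called. C1R RNA had 7.16 to 13.2 CPM in the 4 uninduced libraries and 15.6, 29.4 and 89.5 at 1, 4 and 24 h, and the 24 h change was 3.25 ± 0.28 (adjusted p = 3.76e-06). C1S RNA went from 11.8 to 18.7 CPM uninduced to 20.5, 32.9 and 101 (2.66 ± 0.25, adjusted p = 9.52e-06). CD55 RNA had 150.0 to 186 CPM uninduced and 176, 175 and 635 (1.94 ± 0.15, adjusted p = 1.14e-06), and CD59 RNA 100.6 to 167 and 145, 160 and 276 (1.00 ± 0.21, adjusted p = 0.00901; 0.0563 without ethanol 1 h). CD46 RNA changed by 0.39 ± 0.15, which did not pass (adjusted p = 0.145; 0.0123 without ethanol 24 h). At 1 and 4 h 0 of 6 passed, where 0.00941% and 0.169% of genes were called; 0 and 2 members had an unadjusted p under 0.05 and DESeq2 called 0 at both. Without ethanol 24 h, C1R and C1S passed at 4 h (adjusted p = 0.00535 and 0.0423).

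Loading gave no call for any of the 6 members at 1, 4 or 24 h (0 with edgeR and with DESeq2, which at 24 h gave adjusted p for C3 and CD59 alone, and 0 at an unadjusted p under 0.05), where 0%, 0% and 0.44% of genes were called. At 24 h the loading change was −0.35 ± 0.38 for C1R, 0.00 ± 0.27 for C1S, −0.31 ± 0.26 for CD55 and 0.07 ± 0.29 for CD59. The SE leave room for moderate changes. Harringtonine libraries, 1 at each time, had 2, 2, 6 and 69 counts of C1R at 0, 1, 4 and 24 h, and the 24 h level was 16.8-fold above 0 h (exact 95% counting interval 4.48 to 141). CD55 rose 6.08-fold (3.38 to 12.0) and CD59 2.72-fold (1.82 to 4.19) in those libraries. C3 went the other way, from 2153 CPM at 0 h to 952 at 24 h, a ratio of 0.442 (0.379 to 0.515), while its cycloheximide footprints overlapped between those times. These pairs have no replicate.

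SERPING1 and MASP1 were close to absent in ER-Src cells. MASP1 had no count in any of the 10 cycloheximide libraries and 1 count in RNA, and SERPING1 had 0 to 3 counts per cycloheximide library. Against EH, 8 members were tested in uninduced ER-Src footprints, and 3 were higher and 5 lower, where 59.1% of genes were called. Cell model and processing batch cannot be told apart in this comparison. MASP1 and SERPING1 passed the filter through EH, so their 2 calls carry no weight. C3 was higher (4.08 ± 0.29, adjusted p = 4.31e-10), at 292 ± 67.3 CPM (SD, n = 4) against 16.7 ± 6.68 (SD, n = 2) on a common scaling. CD55 (1.52 ± 0.19, adjusted p = 1.09e-06) and CD46 (0.87 ± 0.12, adjusted p = 3.23e-06) were also higher. C1R (−5.51 ± 0.17), C1S (−5.93 ± 0.19) and CD59 (−1.20 ± 0.14) were lower, with adjusted p of 7.94e-16, 2.37e-15 and 3.34e-07. MASP1 was at least 815.7-fold lower against a floor of 3 counts over the 4 libraries, and SERPING1, with 3 counts, was 283-fold lower (95% counting interval 95.4 to 1385). Per kilobase of coding sequence, and taking the counts to cover it, footprints in EH were ordered CD59 (3752 CPM per kb), C1R (282), C1S (174), CD46 (121), MASP1 (99.1), SERPING1 (50.2), CD55 (42.7) and C3 (3.24). In uninduced ER-Src cells the order was CD59 (1703), CD46 (228), CD55 (126), C3 (58.9), C1R (6.30), C1S (2.86) and SERPING1 (0.229). No 2 neighbours in either order overlapped between libraries.

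CFB, factor B, was listed at 0 in all 36 libraries on chromosome 6. So were 154 of 167 symbols (92.2%) with rows there and on alternative copies of that chromosome, among them RPS18, CLIC1 and VARS, which every cell uses, against 3610 of 18926 symbols (19.1%) without such copies. The zero therefore says nothing about CFB expression. C2, C4A and C4B, the complement neighbours of CFB, were listed at 0 likewise.

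Beyond the 9 genes, 54 further complement genes were listed, of which 53 had rows and 8 to 11 were tested in a cycloheximide comparison. In EL against EH, 2 were higher and 5 lower of 8, where 41.5% of all tested genes were called (medians −0.82 and −0.01 over all tested genes). In ELR against EL 2 were higher and 2 lower of 8, where 36.1% were called (median −1.0), and in ELR against EH 2 were higher and 6 lower of 8, where 53.4% were called (median −1.74). CFI and C5 passed the low-count filter through EH, the line where they were high, so their lower calls against EH carry no weight. At 24 h of tamoxifen 5 were higher and 2 lower of 9, where 14.6% were called (median 0.95). CRP, an acute-phase protein that binds C1q, had 1 count over the 4 uninduced libraries. At 24 h it had 27 and 84 counts, 16.6 and 25.3 CPM. It passed the low-count filter through the 24 h libraries, so its call among those higher carries no weight. Its RNA had no count before 24 h and 39 counts there. CFI, the protease that cleaves C3b, rose from 7.99 to 36.04 CPM (2.17 ± 0.27, adjusted p = 4.97e-05). C1RL, a C1R-like protease, went from 11.01 to 23.0 CPM (1.04 ± 0.27, adjusted p = 0.0166). Clusterin (CLU), an inhibitor of pore formation, fell by 0.98 ± 0.22 on the log2 scale (adjusted p = 0.00565) and PTX3, a pattern-recognition protein, by 1.67 ± 0.36 (adjusted p = 0.00463).

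In the BJ lines CFI footprints were highest in EH, with 19 counts there, 1 in EL and 0 in ELR. Across EH, EL and ELR, CLU had 110, 90.6 and 27.3 CPM (−2.03 ± 0.15 in ELR against EH, adjusted p = 1.65e-19) and C5 7.74, 1.78 and 0.651 (3 counts in ELR). C1QBP, a mitochondrial protein that also binds C1q, rose from 220.0 to 532 and 729 CPM (1.73 ± 0.06, adjusted p = 1.42e-36), and PTX3 from 38.8 to 75.0 and 78.9 (1.01 ± 0.16, adjusted p = 8.44e-08).

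Over the 16 cycloheximide libraries of both models, the gene most like C1R in log2 CPM among 10931 was C1S (Pearson r = 0.949), and the gene most like C1S was DCN (0.976). The closest to MASP1 were IGF2 (0.997) and MXRA5 (0.995), to SERPING1 SGIP1 (0.985), to C3 S100A16 (0.979), to CD55 NDRG1 (0.979), to CD46 HES1 (0.975) and to CD59 LRP10 (0.968). These describe 16 points that fall into 2 cell types and carry no test.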

How the data were processed

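Counts per RefSeq transcript were deposited by the authors, 1 table per library for 36 libraries in 27 groups. Reads were aligned with TopHat to hg19 (GRCh37), per the submitters' processing notes; versions and the counting program are not given in the sources used here. Rows on alternative or unplaced sequences were dropped, and the row with the highest mean count stood for a gene. Libraries were scaled by TMM and fitted in edgeR 4.0.16 (R 4.3.3) with quasi-likelihood tests, two-sided, after the filter on low counts (minimum 10, total 15), with Benjamini-Hochberg adjustment over all genes tested, in 20 comparisons; a gene was called at adjusted p under 0.05. Loading is the footprint by RNA interaction. DESeq2 1.42.0, relative log expression scaling, no filter, another transcript, a replicate block and leaving out each library were tried. Positions came from GENCODE release 44 mapped to GRCh37. Named were all 9 members, the 8 genes of the wider list with the largest called change in the BJ and tamoxifen cycloheximide comparisons (uninduced ER-Src against EH and harringtonine left out; 1 of them is not reported here), and the 2 genes most like each member. Members and lists were chosen with earlier results of these data known. Intervals and floors of 3 counts cover counting error only, because duplicate PCR reads could not be told from separate molecules.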

Additional observations from a re-analysis of the deposited data

Results flagged for a closer look

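Among 15 sets of 4 uninduced libraries examined, 3 had a library far from the others; chance gives about 1 in 20, a rate that does not hold for sets that are mostly 0. CD55 footprints were 113 CPM in the 0 h library, below the 3 ethanol libraries at 153 to 157. MASP1 and SERPING1 each had 1 RNA count (0.398 CPM) in the ethanol 24 h library and none in the other 3, so a single count set each apart by construction.

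The 24 h and 1 h tamoxifen footprints differed, by edgeR's test of that difference, for C1R (2.84, adjusted p = 1.46e-05), C1S (2.61, adjusted p = 0.000297), CD46 (0.68, adjusted p = 0.00597), CD55 (1.53, adjusted p = 0.000125) and CD59 (0.79, adjusted p = 0.0129) on the log2 scale. Both 24 h libraries lay above both 1 h libraries for each of these called genes. The share of all genes so separated was not counted. Without tamoxifen 1 h replicate 2 the CD46 and CD59 calls were lost (adjusted p = 0.0548 and 0.14), and without 24 h replicate 1 the CD59 call (0.104).

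CFB had 6 rows on alternative copies of chromosome 6, of which 1 held counts. That row had 10 counts in the tamoxifen 4 h RNA library and 9 in the tamoxifen 24 h RNA library, against at most 1 in the other libraries.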

How the results depend on the processing

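Counts of called members kept within 1.5 times under all but these settings. Under DESeq2 the counts in harringtonine footprints were 2 (EL against EH, main 4) and 1 (ELR against EL, main 3), and in loading 2 (EL against EH, main 5) and 1 (ELR against EH, main 3). With no filter, ELR against EL under harringtonine gave 1, and tamoxifen 4 h RNA 1 (main 0). With ethanol libraries only, or replicate 2 libraries only, tamoxifen 4 h footprints gave 0 (main 2). Leaving out 1 library gave 0 to 1 for tamoxifen 4 h footprints, 3 to 5 for 24 h against 1 h (3 without 1 h replicate 2), 0 to 2 for 4 h RNA and 1 to 3 for ELR against EL under harringtonine. No called change reversed. Over 1364 member results under alternatives, 1308 kept their side of the threshold, 52 lost it and 4 gained it; results to which DESeq2 gave no adjusted p are not among these.

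Replicate numbers were not shown to pair the libraries: replicate differences correlated at 0.03 to 0.046 between BJ cycloheximide groups, −0.001 to 0.031 under harringtonine and −0.033 to 0.223 in ER-Src. With the replicate block the counts of called members were 7, 6 and 7 in the BJ footprint comparisons and 5 at 24 h of tamoxifen, the same as without it; over all genes it gave 4 calls at 1 h instead of 2.

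Counts of calls over all genes differed between settings; DESeq2 changes scaling and test together. It gave 2462 against edgeR's 4146 in EL against EH and 1824 against 3612 in ELR against EL; with the spread over all 16 cycloheximide libraries these were 2607 and 1778. Under harringtonine DESeq2 gave 256, 188 and 492 against 658, 578 and 1093, and for loading 233, 104 and 285 against 745, 331 and 833. In loading the share of higher calls was 63.46% and 55.79% under DESeq2 against 34.44% and 42.98% in ELR against EL and ELR against EH; edgeR with relative log expression scaling gave 60.62% and 52.12%, and 47.87% against 56.64% in EL against EH. Tamoxifen 1 h footprints had 2 calls (12 under DESeq2, 22 with no filter, 0 to 6 leaving out 1 library), 4 h 87 (172 with no filter, 56 with ethanol only, 3 with replicate 2 only, 9 without 4 h replicate 1), 24 h 1490 (506 with replicate 2 only, 701 without 24 h replicate 2) and 24 h against 1 h 1388 (486 without 1 h replicate 2). RNA had 1 call at 1 h (4 under DESeq2, 6 with no filter, 0 with ethanol only), 18 at 4 h (35 with no filter, 10 with ethanol only, 99 without ethanol 24 h) and 687 at 24 h (446 under DESeq2, 1587 without ethanol 24 h). Loading at 24 h had 49 (93 under DESeq2, 11 without 24 h replicate 1). Under harringtonine the higher share was 24.47% and 29.27% under DESeq2 against 39.27% and 43.37% in ELR against EL and against EH. The causes were not tested. Few counts limit MASP1, SERPING1 and C1S in ELR and all harringtonine values.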
